A study of Mus musculus with 12 samples.

Results

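The 10 genes described here build, load and regulate MHC class I molecules, the cell-surface complexes that show fragments of a cell's own proteins to CD8+ T cells. They were taken by gene symbol, each present once in both deposited expression tables, and are 10 genes of 18223 in the H-Ras(G12V) and mCherry table and of 17800 in the etoposide and DMSO table. Members are H2-D1 and H2-K1 (classical heavy chains), B2m (the light chain), Tap1 and Tap2 (the peptide transporter), Tapbp (tapasin), Psmb8 and Psmb9 (immunoproteasome subunits), Erap1 (an aminopeptidase) and Nlrc5 (the transactivator).

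Libraries were made from mRNA of primary neurons of C57BL/6 mice, collected on day 10 of either of 2 treatments that the study uses as neuronal ageing models. In the first, the oncogenic small GTPase H-Ras(G12V) was over-expressed from an adeno-associated virus, as a model of oncogene-induced senescence, and the comparison group is labelled mCherry, a fluorescent protein. In the second, cells received etoposide, a topoisomerase II poison that breaks DNA, as a model of stress-induced premature senescence, against the solvent DMSO. There are 4 groups of 3 libraries. The promoter of the virus, the dose of etoposide and the age of the animals are not given in the sources used here, and nothing says whether a group's libraries are separate cultures or mice. Its p-values therefore reflect the spread between libraries, which may be technical. For the etoposide and DMSO libraries the treatment tag contradicts the title, which the table's column names follow. The titles were used here, so a direction given for etoposide is that of the libraries titled etoposide.

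Between 11829 and 12728 genes reached 1 FPKM (fragments normalised to transcript length and to the library total) in a library. The row of the mouse gene Hras had 33.5 to 51.6 FPKM under the H-Ras(G12V) label and 43.0 to 45.9 FPKM under the mCherry label, so it does not check those labels. No source used here says whether that row can hold reads of the viral transgene, and directions given for H-Ras(G12V) are those of the libraries so labelled. By Spearman's rho over all genes of a table, tested or not, etoposide 3 stood closer to DMSO 1, 2 and 3 (0.985, 0.986 and 0.969) than to etoposide 1 and 2 (0.921 and 0.946). For mCherry 3, rho was 0.965 to mCherry 1 and 0.963 to mCherry 2, and that pair reached 0.993 between themselves. Its rho to H-Ras(G12V) 1, 2 and 3 was 0.968, 0.963 and 0.968.

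In the textbook pathway, proteasomes cut proteins in the cytosol, and under immune stimulation the subunits Psmb8, Psmb9 and Psmb10 replace constitutive catalytic subunits. Tap1 and Tap2 together carry the peptides into the endoplasmic reticulum, Erap1 trims them, and Tapbp bridges the transporter to empty heavy chains paired with B2m until a peptide is bound. Healthy neurons are known for low surface class I, and interferon-gamma raises the whole set, in part through Nlrc5, which is recruited by factors that bind a conserved promoter module of class I genes and B2m.

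The start windows of H2-D1, H2-K1 and B2m are shown because they hold letters of that module, and the window of Tap1 because it does not hold the same pair. They come from RefSeq on the build GRCm38.p6, run from 250 bases before to 50 bases after a transcription start, and were found for 8 of the 10 genes, not for Tap2 and Nlrc5. The H2-D1 window is chr17:35262844-35263143 on the plus strand, the H2-K1 window (the first of 2 in the table) chr17:34000284-34000583 on the minus strand, the B2m window chr2:122147437-122147736 on the plus strand and the Tap1 window chr17:34187306-34187605 on the plus strand. Each is printed 5′ to 3′ in the direction of its gene, and capitals mark matches on either strand to the motifs named after them.
H2-D1: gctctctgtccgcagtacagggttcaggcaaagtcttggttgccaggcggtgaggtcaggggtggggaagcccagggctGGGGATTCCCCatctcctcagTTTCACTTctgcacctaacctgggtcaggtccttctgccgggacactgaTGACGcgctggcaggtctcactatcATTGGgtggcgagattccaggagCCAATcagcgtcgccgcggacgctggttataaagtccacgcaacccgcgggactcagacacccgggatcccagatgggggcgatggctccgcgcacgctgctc
H2-K1: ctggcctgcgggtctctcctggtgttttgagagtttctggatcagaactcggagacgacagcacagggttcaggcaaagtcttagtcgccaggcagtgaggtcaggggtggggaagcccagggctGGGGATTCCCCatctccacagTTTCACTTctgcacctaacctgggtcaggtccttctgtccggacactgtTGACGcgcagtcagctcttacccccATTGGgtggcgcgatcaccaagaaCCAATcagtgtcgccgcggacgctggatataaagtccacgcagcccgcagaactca
B2m: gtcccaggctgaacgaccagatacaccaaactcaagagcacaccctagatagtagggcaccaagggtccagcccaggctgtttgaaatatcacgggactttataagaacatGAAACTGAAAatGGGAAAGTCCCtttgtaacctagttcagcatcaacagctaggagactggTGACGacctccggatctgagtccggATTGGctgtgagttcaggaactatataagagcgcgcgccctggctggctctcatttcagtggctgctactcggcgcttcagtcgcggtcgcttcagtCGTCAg
Tap1: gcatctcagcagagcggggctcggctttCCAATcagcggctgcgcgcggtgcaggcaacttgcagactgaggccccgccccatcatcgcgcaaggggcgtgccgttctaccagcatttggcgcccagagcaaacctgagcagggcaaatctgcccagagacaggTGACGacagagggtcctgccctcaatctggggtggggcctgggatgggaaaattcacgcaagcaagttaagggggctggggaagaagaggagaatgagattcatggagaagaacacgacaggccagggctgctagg

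The motifs were the interferon-stimulated response element as GAAANNGAAA, the shorter IRF element AANNGAAA that lies within it, a kappaB site as GGGANNNNCC, the core TGACG of the X2 box and the core CCAAT of the Y box, each searched on both strands. They were chosen after the windows had been read. In H2-D1, H2-K1 and B2m, TGACG was followed by ATTGG, the Y core on the other strand, with 20 bases between them in each gene, a pair at this spacing that 0.0944% of the 32851 windows in the table held on either strand. The same 3 windows were also the members' windows with a kappaB match, against 20.7% of all windows. The full interferon-stimulated element was found in B2m and Erap1 and in 3.44% of all windows, and the shorter IRF element in 4 of the 8 genes and in 23.9% of all windows. X2 cores were found in 5 of 8 and Y cores in 6 of 8, against 20.8% and 37.4% of all windows. Tap1 had an X2 core and a distant Y core without the pair, and its window shared 275 of 300 bases with that of Psmb9, which starts on the opposite strand. The X2 and Y matches of Psmb9 lie on the same bases as those of Tap1, so the counts above include these sites for both genes. Psmb9, Tap1, Psmb8 and Tap2 are consecutive protein-coding genes in the RefSeq annotation. Psmb8 had none of the 5 motifs in its window. The H2-K1 and H2-D1 windows were identical at 222 of 253 aligned bases (87.7%).

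**Figure D1:**
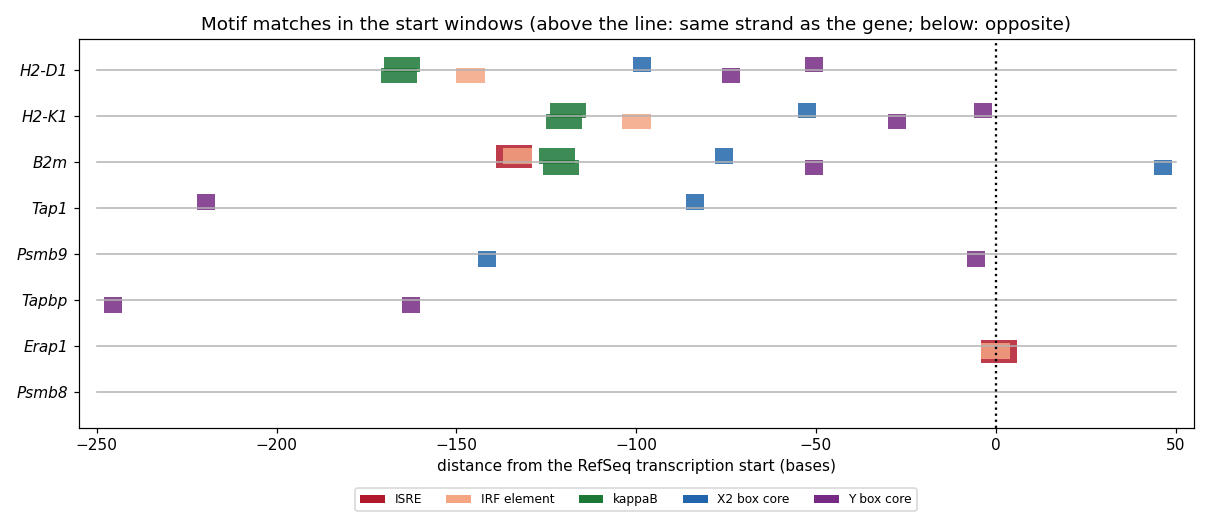
Motif matches in the start windows of 8 genes, with the distance from the RefSeq transcription start in bases on the x axis and a row per gene; boxes above a line lie on the strand of the gene and boxes below it on the opposite strand. H2-D1, H2-K1 and B2m each show a kappaB match and an IRF element side by side, followed by an X2 core and a Y core at 1 spacing, and Psmb8 has no match.

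Levels differed widely among the members, and FPKM, being per length, allows genes to be set side by side. B2m was the most abundant in every group, with group means of 221 FPKM in H-Ras(G12V) and 156 FPKM in mCherry, and of 193 FPKM in etoposide and 111 FPKM in DMSO. It lay above 97.2% of all genes in mCherry and above 95.5% in DMSO. The heavy chains followed, and H2-D1 and H2-K1 overlapped in mCherry, etoposide and DMSO but not in H-Ras(G12V), where H2-D1 was the higher. Next came Tapbp in 3 groups, with Tap1 ranked just above it in etoposide, where the 2 genes overlapped. Tap2 and Tap1 overlapped in every group. Erap1, Psmb9 and Psmb8 followed. The order of Psmb9 and Psmb8 was the opposite in mCherry. Ranges of neighbours also overlapped between H2-D1 and Tapbp and between Tap1 and Erap1 in mCherry, between Erap1 and Psmb9 in the other 3 groups, and between Psmb9 and Psmb8 outside etoposide. In etoposide, further overlaps were those of H2-K1 with Tap1, Tapbp with Tap2, Tap2 with Erap1 and Nlrc5 with Psmb8. Nlrc5 was lowest in all groups but etoposide, at 0.563 FPKM in mCherry and 0.163 FPKM in DMSO.

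The first comparison asks what H-Ras(G12V) did to this pathway. With H-Ras(G12V), both classical heavy chains and the transporter subunit Tap1 rose by 1.54- to 1.96-fold. B2m was 1.42-fold higher but just missed the threshold, and Tap2, Tapbp, Psmb8, Psmb9 and Erap1 showed no call. In limma on log2(FPKM + 1), with p-values adjusted over all 12724 genes tested, 3 of the 9 tested members were called higher and 0 lower, against 10.3% of all genes called higher, 6.67% called lower and 17% called in either direction. Nlrc5 averaged under 1 FPKM and did not pass the filter on low values. In 4 of the 9 all H-Ras(G12V) libraries lay above all mCherry libraries, against 23.7% of all tested genes. The median log2 fold change over the 9 was 0.45, against 0.05 over all tested genes.

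H2-D1, a classical heavy chain, had 50.7, 66.4 and 50.9 FPKM in the H-Ras(G12V) libraries, against 32.0, 35.3 and 18.5 FPKM in mCherry. All H-Ras(G12V) libraries lay above all mCherry libraries, and mCherry 3 was the lowest of the 6. The difference was 0.98 ± 0.25 on the log2 scale (SE; 1.96-fold between the means; limma adjusted p = 0.0400). H2-K1, the other classical heavy chain, had 42.3, 46.0 and 47.0 FPKM in H-Ras(G12V), against 28.7, 34.6 and 24.2 FPKM in mCherry. Again the groups did not overlap, and the H-Ras(G12V) libraries lay close together. The difference was 0.62 ± 0.15 (SE; 1.54-fold; limma adjusted p = 0.0335). As bulk measurements, these values cannot tell fewer cells of a type from less RNA per cell.

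Class I genes resemble each other, which bears on how reads are shared out. Of the 100-base windows of the annotated H2-D1 transcripts (GENCODE M21), 3.59% also occurred in another gene, most often H2-Q1, and of those of H2-K1 0.957%, all of them in H2-Q10. No source used here says how the authors' counting split such reads, and the levels of single class I chains are uncertain to that extent. B2m, Tap1, Tap2, Psmb8, Psmb9, Nlrc5 and Erap1 had 0 such windows.

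B2m, the light chain that every class I molecule needs to reach the surface, had 241, 195 and 227 FPKM in H-Ras(G12V), against 154, 176 and 137 FPKM in mCherry. The groups did not overlap, with the lowest H-Ras(G12V) library, library 2, close to the highest mCherry library. The difference of 0.50 ± 0.14 (SE; 1.42-fold) had a limma adjusted p of 0.0538. Per library, B2m stood at 1.74 to 2.59 times the summed FPKM of the 2 heavy chains in H-Ras(G12V) and at 2.52 to 3.21 times in mCherry, ranges that overlapped.

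Tap1, the transporter subunit that interferon regulates together with Psmb9, had 7.79, 8.62 and 9.01 FPKM in H-Ras(G12V), against 5.39, 5.70 and 3.71 FPKM in mCherry. The groups did not overlap. Its difference was 0.69 ± 0.17 (SE; 1.72-fold; limma adjusted p = 0.0340). Tap2, its partner, had 8.5, 9.91 and 7.89 FPKM in H-Ras(G12V), against 4.42, 4.46 and 13.2 FPKM in mCherry. Here mCherry 3 was the highest of the 6 libraries and mCherry 1 and 2 the lowest, and the difference of 0.38 did not pass (limma adjusted p = 0.503). The ratio of Tap1 to Tap2 ran between 0.870 and 1.14 in H-Ras(G12V) and stood at 1.22 and 1.28 in mCherry 1 and 2 but 0.282 in mCherry 3.

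Tapbp, which tethers empty class I molecules to the transporter, had 16.7, 19.9 and 12.1 FPKM in H-Ras(G12V), against 19.4, 21.4 and 19.3 FPKM in mCherry. It was the one tested member whose fold change was negative, at -0.32 (limma adjusted p = 0.266), and the groups overlapped. Psmb8, an immunoproteasome subunit, had 2.64, 3.95 and 2.36 FPKM in H-Ras(G12V), against 3.14, 3.54 and 1.91 FPKM in mCherry. Psmb9, the subunit encoded head to head with Tap1, had 1.77, 4.64 and 2.71 FPKM in H-Ras(G12V), against 1.78, 2.70 and 1.23 FPKM in mCherry. Both overlapped between the groups, with log2 fold changes of 0.05 and 0.45 (limma adjusted p = 0.905 and 0.334), and library 2 was the highest of the H-Ras(G12V) libraries for both. Erap1, the trimming peptidase, had 4.68, 3.89 and 4.34 FPKM in H-Ras(G12V), against 4.27, 4.53 and 3.94 FPKM in mCherry, with fully interleaved libraries.

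Nlrc5 had 1.20, 1.54 and 1.1 FPKM in H-Ras(G12V), against 0.64, 0.60 and 0.45 FPKM in mCherry. The groups did not overlap, and the means stood 2.27-fold apart. In a fit with no filter on low values, an alternative added after its values were seen, the difference was 0.54 ± 0.10 (SE; limma adjusted p = 0.0235), and over the alternatives to that fit the adjusted p ran from 0.0204 to 0.0969.

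The 3 calls were fragile. Leaving out any of the H-Ras(G12V) libraries or mCherry 1 left 0 of the 9 members called, while 3.98% to 9.1% of all genes were still called. Leaving out mCherry 2 left H2-K1 (4.86% of all genes called), and leaving out mCherry 3 gave 5 calls, with B2m and Tap2 added, while 45% of all genes were called. With each library scaled to a common FPKM sum, 0 members were called, while 17.2% of all genes were, and the median of all tested genes was -0.07 in place of 0.05. With mCherry 1 and 2 averaged into 1 library, 0 were called too (4.97% of all genes), and the Nlrc5 difference had a limma adjusted p of 0.0823.

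**Figure D2:**
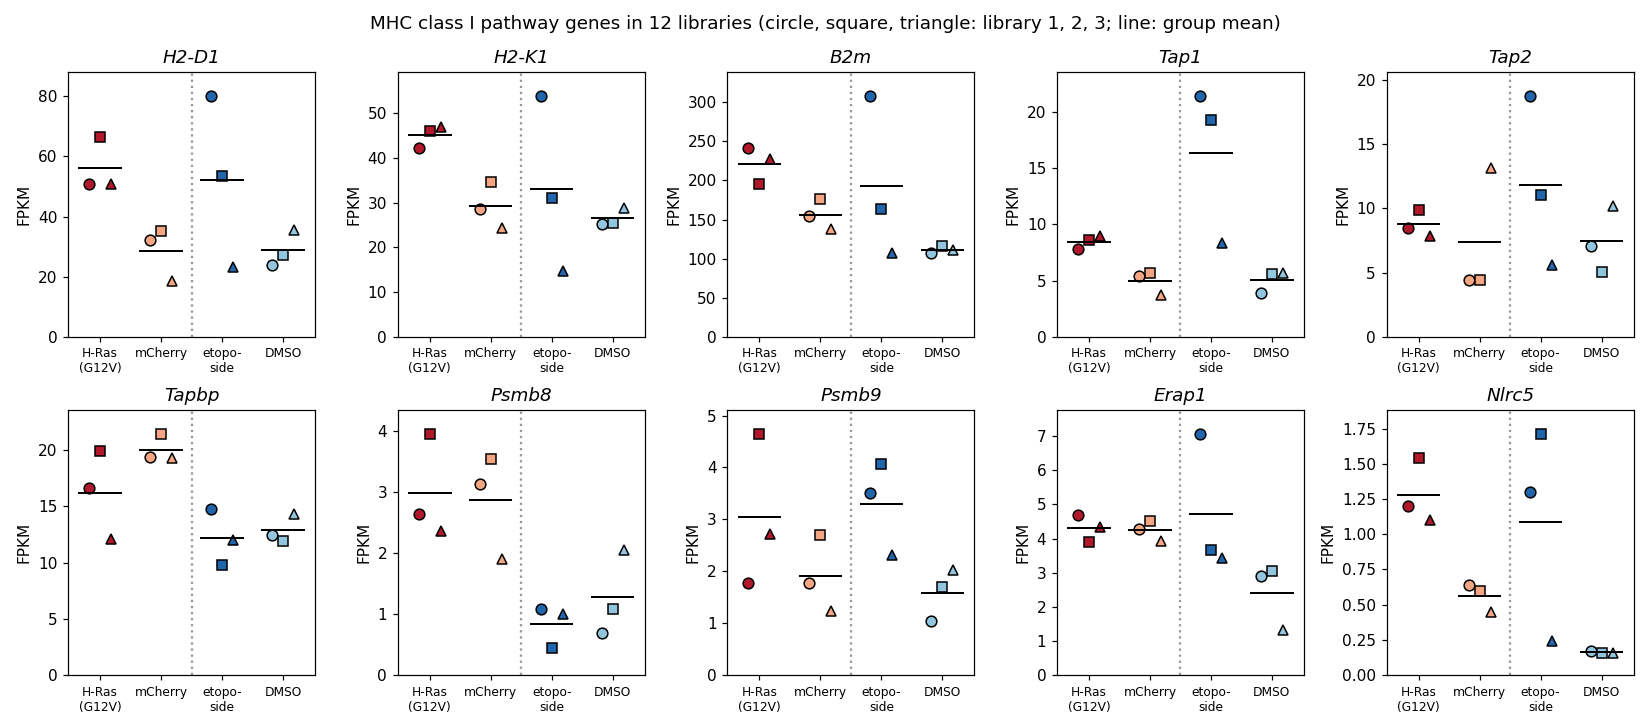
FPKM of the 10 genes in every library, on a linear axis from 0 that differs between panels; symbols give the library number and lines the group means, with H-Ras(G12V) and mCherry left of the dotted line and etoposide and DMSO right of it. H2-D1, H2-K1, B2m, Tap1 and Nlrc5 do not overlap between H-Ras(G12V) and mCherry, and etoposide 1 and 2 stand above etoposide 3 for most genes.

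The second comparison asks the same of etoposide. Etoposide libraries 1 and 2 held more class I, light chain and transporter mRNA than any DMSO library, whereas etoposide 3 lay below or within the DMSO range for these genes except Tap1, and no member passed the test. By limma, 0 of the 9 tested members were called, against 0.453% of 12371 genes called in either direction and 0% called higher. Of the 9, Tap1 and Psmb9 had an unadjusted limma p under 0.05, at 0.00409 and 0.0333. The share of all tested genes under that unadjusted level is not given here, so these values single out neither gene. In 3 of the 9 all etoposide libraries lay above all DMSO libraries, against 7.64% of all tested genes, and the median log2 fold change over the 9 was 0.66, against 0.09 over all tested genes.

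H2-D1 had 80.1, 53.4 and 23.3 FPKM in etoposide, against 23.9, 27.1 and 35.6 FPKM in DMSO. H2-K1 had 53.9, 31.0 and 14.6 FPKM in etoposide, against 25.3, 25.5 and 28.9 FPKM in DMSO. B2m had 308, 164 and 107 FPKM in etoposide, against 107, 116 and 111 FPKM in DMSO. For each of these genes etoposide 1 was the highest of the 6 libraries and etoposide 2 the next, while etoposide 3 was the lowest for H2-D1 and H2-K1 and within the DMSO range for B2m. The log2 fold changes of 0.69 ± 0.42, 0.13 ± 0.42 and 0.66 ± 0.37 (SE) had limma adjusted p-values of 0.431, 0.880 and 0.407. The ratio of H2-D1 to H2-K1 lay between 1.49 and 1.72 in etoposide, etoposide 3 included, and between 0.945 and 1.23 in DMSO.

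Tap1 had 21.4, 19.3 and 8.38 FPKM in etoposide, against 3.94, 5.58 and 5.70 FPKM in DMSO. All etoposide libraries lay above all DMSO libraries, etoposide 3 included. The difference of 1.43 ± 0.38 (SE; 3.23-fold) was the largest of the 9 members in either comparison and did not pass after adjustment (limma adjusted p = 0.263). Tap2 had 18.8, 11.1 and 5.56 FPKM in etoposide, against 7.08, 5.01 and 10.2 FPKM in DMSO, and overlapped. The ratio of Tap1 to Tap2 was between 1.14 and 1.74 in etoposide and between 0.556 and 1.11 in DMSO.

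Psmb9 had 3.51, 4.06 and 2.32 FPKM in etoposide, against 1.04, 1.70 and 2.02 FPKM in DMSO. Erap1 had 7.06, 3.67 and 3.43 FPKM in etoposide, against 2.90, 3.04 and 1.31 FPKM in DMSO. Neither overlapped between the groups, and neither passed, with log2 fold changes of 0.73 each (limma adjusted p = 0.356 and 0.369). Psmb8 had 1.08, 0.44 and 1.00 FPKM in etoposide, against 0.69, 1.08 and 2.05 FPKM in DMSO, around the 1 FPKM of the filter. Tapbp had 14.8, 9.80 and 12.1 FPKM in etoposide, against 12.4, 11.9 and 14.4 FPKM in DMSO. These last 2 genes overlapped, with negative fold changes of -0.28 and -0.09.

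Nlrc5 had 1.3, 1.71 and 0.24 FPKM in etoposide, against 0.17, 0.16 and 0.16 FPKM in DMSO. The 3 DMSO libraries were nearly equal, etoposide 1 and 2 stood far above them and etoposide 3 just above. The means were 6.63-fold apart. In the fit with no filter its limma adjusted p was 0.426, without etoposide 3 it was 0.00546, and over all alternatives it ran from 0.00546 to 0.774.

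Etoposide 3 was the lowest etoposide library for 8 of the 10 genes. For 8 of 10, etoposide 1 and 2 both lay above all DMSO libraries, and for 4 (Tap1, Psmb9, Erap1 and Nlrc5) etoposide 3 did too. All etoposide libraries lay above all DMSO libraries in 7.64% of all tested genes. The share for etoposide 1 and 2 alone is not given here, so the first count cannot be set against all genes. Without etoposide 3, limma called 4 of 9 members higher, against 2259 of 12371 genes called higher and 31.6% called in either direction. The 4 were H2-D1 (1.17, limma adjusted p = 0.0119), B2m (1.01, 0.0278), Tap1 (1.83, 0.00127) and Psmb9 (0.90, 0.0279).

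**Figure D3:**
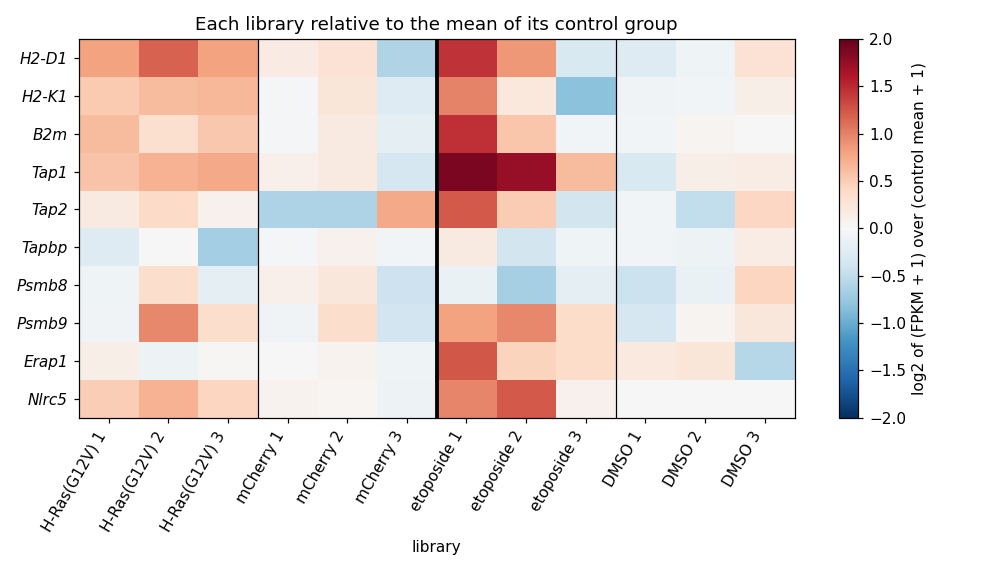
Each library relative to the mean of its control group, as the log2 of (FPKM + 1) over (control mean + 1), with the 10 genes in rows and the 12 libraries in columns, H-Ras(G12V), mCherry, etoposide and DMSO from left to right. Etoposide 1 and 2 are darkest for Tap1, and etoposide 3 is pale or blue for most genes, while the 3 H-Ras(G12V) libraries are alike for H2-D1, H2-K1, B2m and Tap1.

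**Figure D4:**
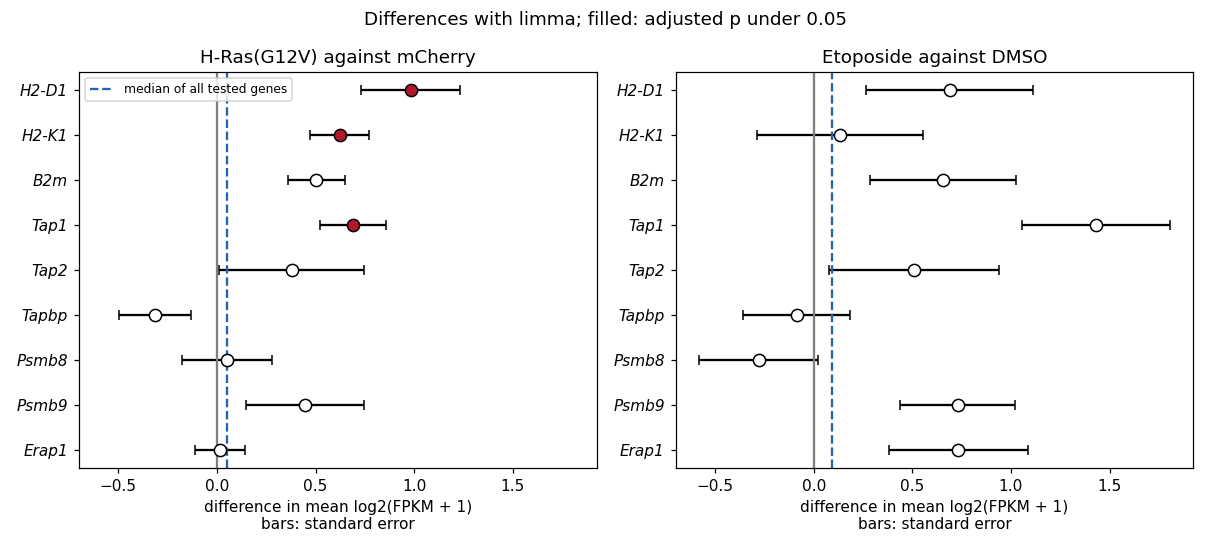
Difference in mean log2(FPKM + 1) for the 9 tested genes, H-Ras(G12V) minus mCherry on the left and etoposide minus DMSO on the right, with standard errors as bars, filled points for a limma adjusted p under 0.05 and a dashed line at the median of all tested genes. H2-D1, H2-K1 and Tap1 are filled on the left and no gene on the right, where the error bars are wider.

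The 2 treatments were set against each other in a contrast over the 12 libraries, which subtracts the effect of etoposide from that of H-Ras(G12V). By limma 0 of 9 members differed, against 2.78% of 12179 genes in either direction, and 0 of 9 had an unadjusted p under 0.05. The value for Tap1 was -0.74, with both effects positive. Without etoposide 3 it was -1.14 and passed (limma adjusted p = 0.0166), in a fit that called 1 of 9 members and 21.2% of all genes. Over the alternatives its adjusted p ran from 0.0166 to 0.627. The value for H2-D1 was 0.29, and its sign turned without etoposide 3. A contrast that misses the threshold does not show that the treatments act alike on these genes.

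Immunoproteasome subunits stayed a small fraction of their constitutive counterparts. Psmb8 stood at 1.35% to 2.04% of Psmb5 in H-Ras(G12V) and 1.16% to 1.83% in mCherry, and at 0.217% to 0.611% in etoposide and 0.381% to 0.709% in DMSO. Psmb9 stood at 1.04% to 2.12% of Psmb6 in H-Ras(G12V) and 1.03% to 1.69% in mCherry. In etoposide it stood at 2.10% to 2.60% of Psmb6, against 0.940% to 1.49% in DMSO, without overlap. Psmb10, the remaining induced subunit, stood at 4.75% to 8.14% of Psmb7 over the 12 libraries. The partner list held 9 proteasome genes (induced and constitutive catalytic subunits and the PA28 and PA200 activators). Of 8 tested, 0 passed in either comparison, against 17% of all genes with H-Ras(G12V) and 0.453% with etoposide.

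The peptide-loading chaperones include general folding factors of the endoplasmic reticulum. With H-Ras(G12V), 3 of 8 rose and none fell against 10.3% of all genes called higher and 6.67% called lower (median 0.47, against 0.05 over all genes). Calr, the lectin chaperone of the loading complex, had 520, 524 and 525 FPKM in H-Ras(G12V), against 390, 396 and 324 FPKM in mCherry (0.50; limma adjusted p = 0.0375). Hspa5, the general chaperone BiP, rose by 0.54 (adjusted p = 0.0220) and Sec61a1, the channel proposed to export peptides and proteins, by 0.54 (adjusted p = 0.0252). With etoposide 0 of 8 passed. Hspa5 had 1335, 1103 and 245 FPKM in etoposide, against 183, 242 and 124 FPKM in DMSO, again with etoposide 3 next to the controls. Pdia3, the loading-complex disulfide isomerase, had 372, 267 and 182 FPKM in etoposide, against 138, 165 and 106 FPKM in DMSO, without overlap (0.97; limma adjusted p = 0.353).

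Among 24 nonclassical and class I-like chains, 9 passed the filter in the first table, and 2 of them rose with H-Ras(G12V), against 10.3% of all genes. Cd1d1, which presents lipids to natural killer T cells, had 10.0, 10.4 and 9.32 FPKM in H-Ras(G12V), against 3.46, 3.34 and 1.53 FPKM in mCherry (1.58 ± 0.23 SE; limma adjusted p = 0.00830). With etoposide it had 2.13, 1.13 and 1.83 FPKM, against 3.03, 2.56 and 3.72 FPKM in DMSO, and was not called. All etoposide libraries lay below all DMSO libraries, but the share of all tested genes for which this holds is not given here. The contrast of the treatments passed (2.19; limma adjusted p = 0.00401), but Cd1d1 was named for its call with H-Ras(G12V), whose values enter that contrast. H2-Q7, a Qa-2 chain, rose with H-Ras(G12V) as well, to 2.75, 3.32 and 4.21 FPKM, against 0.95, 1.89 and 0.95 FPKM in mCherry (0.98; limma adjusted p = 0.0255). Of its 100-base windows 12% occur in other class I genes, and of those of Cd1d1 10.5% occur in Cd1d2. With etoposide 0 of 10 tested chains passed, and Procr, a class I-like receptor for protein C, stood at 41.5, 20.9 and 0.39 FPKM in etoposide, against 0.27, 0.53 and 0.29 FPKM in DMSO. Procr was picked out after its values were seen.

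Of 28 interferon-induced genes 11 were tested with H-Ras(G12V), where 0 rose and 1 fell (10.3% and 6.67% over all genes), and 10 with etoposide, where 0 passed, while 13 and 17 of the 28 stayed under 1 FPKM in every library of the first and second table. Isg15, an interferon-induced ubiquitin-like protein, had 1.27, 0.64 and 1.29 FPKM in H-Ras(G12V), against 3.05, 4.52 and 2.61 FPKM in mCherry (-1.08; limma adjusted p = 0.0213). Among 10 receptors, kinases and inhibitors of interferon signalling, Socs3, a feedback inhibitor of cytokine signalling, rose to 11.2, 14 and 11 FPKM in H-Ras(G12V), against 2.74, 1.96 and 2.12 FPKM in mCherry (2.0; limma adjusted p = 0.00153). In that list Ifnar2, a chain of the type I interferon receptor, also rose (0.62; limma adjusted p = 0.0259) and Ifngr2, a chain of the interferon-gamma receptor, fell (-0.41; adjusted p = 0.0426). Thus 2 of 10 rose and 1 fell, against 10.3% and 6.67% of all genes, and with etoposide 0 of 10 passed.

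Of 19 tested regulators of class I transcription, 2 rose and 2 fell with H-Ras(G12V), near the 10.3% and 6.67% of all genes, and of 19 tested with etoposide 0 passed. Irf1, an activator that binds interferon-stimulated elements, had 6.48, 7.21 and 9.32 FPKM in H-Ras(G12V), against 4.10, 4.21 and 4.77 FPKM in mCherry (0.68; limma adjusted p = 0.0296). Rfxank and Rfxap belong to the same RFX complex that binds the conserved module, and Rfxank rose (0.65; adjusted p = 0.0176) where Rfxap fell (-0.60; adjusted p = 0.0323). Bcl11b, a transcription factor of neurons and T cells, fell too (-1.87; adjusted p = 0.0108), to 2.11, 2.14 and 1.98 FPKM in H-Ras(G12V), against 13.1, 14 and 5.75 FPKM in mCherry.

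Of 6 cytosolic peptidases, 1 rose with H-Ras(G12V), against 10.3% of all genes, and 0 passed with etoposide. It was Lap3, a leucine aminopeptidase, at 47.5, 45.3 and 45.7 FPKM, against 22.9, 23.9 and 28.5 FPKM in mCherry (0.86; limma adjusted p = 0.00724). Of 8 genes for surface turnover of class I, 0 passed in either comparison, against 17% of all genes with H-Ras(G12V) and 0.453% with etoposide. Class II genes were mostly low, with 7 of 10 under 1 FPKM in every library of either table. H2-Ab1, a class II beta chain, nevertheless rose with H-Ras(G12V), to 3.08, 4.61 and 6.03 FPKM, against 0.93, 1.02 and 1.5 FPKM in mCherry (1.35; limma adjusted p = 0.0122), while its partner H2-Aa stayed under 1 FPKM.

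Other cell types' markers moved with these groups too. The labelled neurons were present by their markers, with Stmn2, Tubb3 and Snap25 averaging 481, 311 and 263 FPKM over the 12 libraries, but Gfap, an astrocyte filament, averaged 842 FPKM and Olig1, of the oligodendrocyte lineage, 303 FPKM. Summed over 12 fibroblast, meningeal and mural markers, the level was 41.2 to 46.0 FPKM in H-Ras(G12V), against 312 to 422 FPKM in mCherry, and 10 of the 11 tested fell. Of 9 tested oligodendrocyte lineage markers 6 rose with H-Ras(G12V), with sums of 922 to 1120 FPKM, against 229 to 763 FPKM in mCherry. Of 10 astrocyte markers 3 rose, with sums of 2603 to 3749 FPKM, against 1205 to 3163 FPKM in mCherry, and of 10 neuron markers 1 rose and 2 fell, with sums of 1124 to 1316 FPKM, against 1618 to 2171 FPKM in mCherry. Over all tested genes 10.3% rose and 6.67% fell. The part of these shifts in the class I values was not tested.

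Microglia and macrophages are themselves known for class I. The sum of their 13 markers was 44.2, 79.7 and 19.6 FPKM in H-Ras(G12V), against 23.8, 28.1 and 4.96 FPKM in mCherry, and 144, 88.3 and 21.8 FPKM in etoposide, against 14.1, 78.0 and 7.78 FPKM in DMSO. Of 6 tested markers 1, the lysosomal Cd68, rose with H-Ras(G12V), against 10.3% of all genes, and of 7 tested with etoposide 0 passed. The log2 fold changes of all tested markers were positive in both comparisons. Their median was 0.97 with H-Ras(G12V), against 0.05 over all tested genes, and 0.27 with etoposide, against 0.09. Some libraries ranked alike in the marker sum and in class I. The library mCherry 3 was the lowest of its table in the sum and in H2-D1, H2-K1, B2m and Tap1, and etoposide 1 was the highest of its table in all of these. Others did not, since H-Ras(G12V) 3 had a lower sum than mCherry 1 and 2 and higher values of these genes, and DMSO 2 had a sum near that of etoposide 2 and lower values. The part of microglia in the class I values was not tested. Of the 13 markers, 6 and 4 stayed under 1 FPKM in every library of the first and second table. With etoposide, sums over astrocyte markers were 631 to 990 FPKM, against 1051 to 1628 FPKM in DMSO. Sums over oligodendrocyte lineage markers were 77.9 to 220 FPKM, against 539 to 908 FPKM in DMSO. Of 8 tested markers of that lineage 3 fell with etoposide, against 0.453% of all genes called lower. Neuron sums were 604 to 2222 FPKM in etoposide, against 1528 to 1919 FPKM in DMSO, and fibroblast sums 193 to 837 FPKM, against 244 to 655 FPKM in DMSO. Lymphocyte sums stayed at or under 0.16 FPKM in every library, so these markers were at or near 0. Endothelial sums were low, at 2.41 to 3.03 FPKM in H-Ras(G12V), against 3.03 to 6.3 FPKM in mCherry. They were 2.0 to 6.43 FPKM in etoposide, against 0.98 to 2.93 FPKM in DMSO. Of 10 endothelial markers, 8 stayed under 1 FPKM in every library of each table, and the 1 tested with H-Ras(G12V) was not called.

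**Figure D5:**
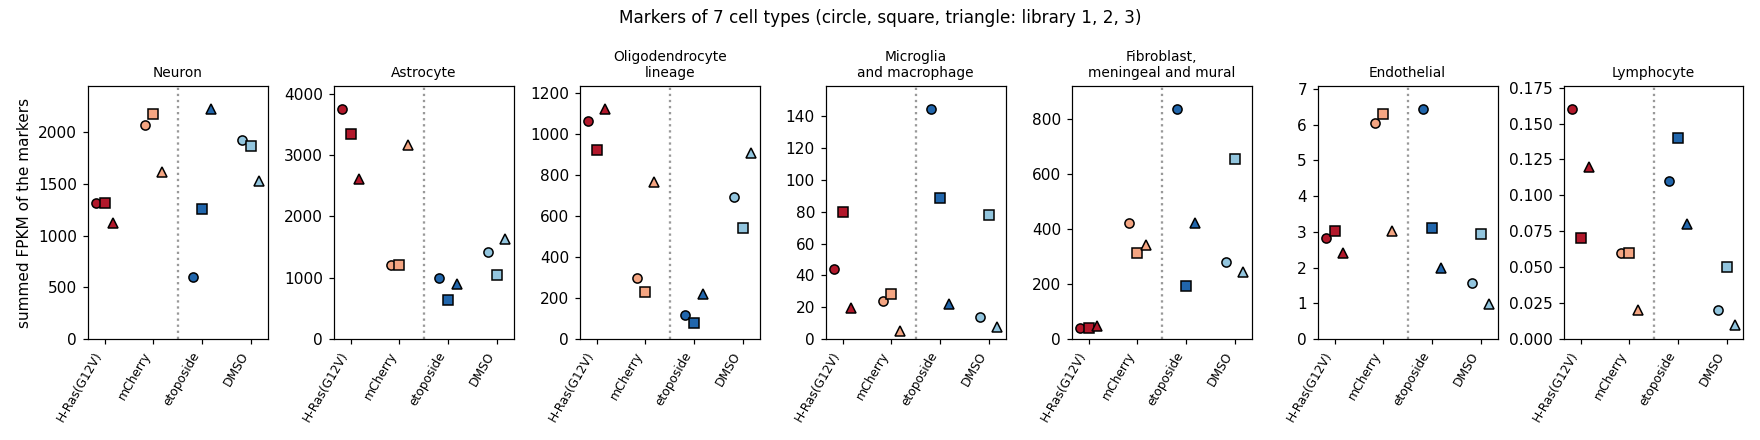
Summed FPKM of the markers of 7 cell types in every library, on a linear axis from 0 that differs between panels, with H-Ras(G12V) and mCherry left of the dotted line and etoposide and DMSO right of it. Fibroblast markers are lowest in H-Ras(G12V), and microglial markers are highest in etoposide 1 and 2, H-Ras(G12V) library 2 and DMSO 2.

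Likeness to B2m was described by Pearson's r of log2(FPKM + 1) over the 6 libraries of each table, ranking 9179 genes by the smaller of the 2 values. The closest were Mpzl1 (0.969), Calu (0.949), Hnrnpf (0.946), Sh3pxd2b (0.943) and Dab2 (0.941). Tap1 ranked 145, H2-K1 157 and H2-D1 198, with r between 0.836 and 0.852, whereas Tap2 ranked 3470 and Tapbp 6092. The 6 libraries of a table share their groups, so such values can be high for any gene that shifts between groups or single libraries as B2m does. In the second table B2m was high in etoposide 1 and 2 and within the DMSO range in etoposide 3.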

How the data were processed

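Gene expression was measured by mRNA sequencing in 12 libraries of primary mouse neurons, 3 in each of 4 groups. The values are FPKM per gene and library, as deposited by the authors in 2 tables, and were treated as normalised separately. HISAT, Bowtie2 and RSEM, and mm9 as the build, appear in the submitters' processing notes without version or role. Read counts were not used here. Steps of low FPKM values gave no stable estimate of depth, so the depth is unknown and no count model, interval or detection floor was computed.

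Values were analysed as log2(FPKM + 1) with limma 3.58.1 in R 4.3.3 (eBayes with trend), for genes whose mean over a table's 6 libraries reached 1 FPKM. P-values are two-sided, were adjusted by Benjamini-Hochberg over all tested genes and were read at a threshold of 0.05. Log2 fold changes understate the change of low genes, and folds are ratios of mean FPKM. The code was tested on simulated data. Groups followed the titles in the labels.

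The members and all gene lists were chosen with earlier results of these data known. Besides the 10 members, lists covered class I-like chains, loading chaperones, proteasome partners, cytosolic peptidases, regulators of class I transcription, interferon signalling, interferon-induced genes, class II, surface turnover and 7 sets of cell type markers. Named from each pathway list were up to 4 called genes per direction and comparison, ranked by fold change, whose higher group averaged at least 2 FPKM. From each marker set the 3 most abundant markers were taken. Other pathway and marker genes given with values were picked after their values were seen. Alternatives were pseudocounts of 0.1 and 5, no filter, a filter of 5 FPKM, 2 scalings, a replicate block, leaving out each library, averaging mCherry 1 and 2, and a single fit of 12 libraries. Fits of Nlrc5 with no filter were added after its values were seen. Start windows come from RefSeq (GRCm38.p6) and transcript sequences from GENCODE M21, another build than mm9, so no coordinates of the tables were used.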

Additional observations from a re-analysis of the deposited data

Results flagged for a closer look

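By the limma contrast that subtracts the effect of etoposide from that of H-Ras(G12V), adjusted over all genes, 2.78% of 12179 genes passed. The treatments' effects differed for 7 of the genes that the rule on named genes took. None of the 9 class I genes tested in that contrast was among them, and Nlrc5 did not pass its filter. Of the class I-like and class II chains, Cd1d1 had a contrast of 2.19 on the log2 scale (adjusted p = 0.00401) and H2-Ab1 one of 2.19 (adjusted p = 0.0296). Of the oligodendrocyte lineage markers, Olig1 had 3.98 (adjusted p = 0.0224), Olig2 4.05 (adjusted p = 0.000449) and Cnp 2.59 (adjusted p = 0.00495). Of the fibroblast, meningeal and mural markers, Dcn had -4.20 (adjusted p = 0.0175) and Igf2 -5.42 (adjusted p = 0.000743). The contrast uses a single estimate of spread for the 4 groups. Cd1d1 and H2-Ab1 had been named for their calls with H-Ras(G12V). The values behind those calls enter the contrast, so it gives no independent support for these genes.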

How the results depend on the processing

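Over 15 alternatives, H2-D1 lost its call with H-Ras(G12V) in 10, H2-K1 in 8 and Tap1 in 10, with adjusted p up to 0.178, 0.354 and 0.238, and none of the 3 changed sign. Of the 9 tested members, 0 were called on a common sum, with mCherry 1 and 2 averaged and in 1 fit over both tables, and 0 to 5 with a library left out. With a library left out, 507 to 5722 genes were called with H-Ras(G12V), 4 to 3908 with etoposide (0 to 4 members) and 183 to 2587 for the contrast of the treatments (0 to 1 members). Genes called with H-Ras(G12V) numbered 2161, 633 with mCherry 1 and 2 averaged and 592 in the single fit. With etoposide 56 were called, 22 at a filter of 5 FPKM and 173 in the single fit, which called 1 member, Tap1. The contrast called 339, 599 with no filter and 161 at a filter of 5 FPKM. Of all calls with H-Ras(G12V), 60.7% were higher, against 39.3% on a common sum and 49.3% with median-of-ratios scaling. The cause of these differences was not tested.

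Deviations from the group means correlated at -0.04 to 0.12 between same-numbered libraries of the first table and at -0.26 to -0.15 in the second. Between libraries of different number they correlated at -0.12 to 0.11 and at 0.03 to 0.19. With so few libraries, these values cannot show whether library numbers pair the samples. With the replicate block, 1 member (H2-D1) was called with H-Ras(G12V), against 13.2% of all genes, and 12 genes were called with etoposide.

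Signs turned for small values. With H-Ras(G12V), Psmb8 (0.05) became -0.056 on a common sum and -0.0034 with median-of-ratios scaling, and ran from -0.14 (without mCherry 3) to 0.18 with a library left out, at -0.12 without H-Ras(G12V) 2. Erap1 (0.01) became -0.10 and -0.044 under these scalings, and ran from -0.037 (without H-Ras(G12V) 1) to 0.072, at -0.028 without mCherry 3. With etoposide and a library left out, H2-K1 ran from -0.30 (without etoposide 1) to 0.61 and Tapbp from -0.22 to 0.050 (without etoposide 2). In the contrast, Tap2 ran from -0.54 to 0.33 (without mCherry 3; 0.26 without etoposide 1 and 0.093 without DMSO 2), B2m from -0.50 to 0.25 (without etoposide 1), H2-D1 from -0.19 (without etoposide 3) to 0.68 and Nlrc5 with no filter from -0.56 to 0.0039 (without etoposide 2).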

Other observations

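The pair of TGACG and ATTGG with 20 bases between them lay in the start windows of 27 genes by symbol, among them B2m, H2-D1, H2-K1 and the class I-like H2-M3. Of the other genes in the ranking by likeness to B2m, 16 hold the pair. Among 9179 ranks theirs began with Calu at 2, Hnrnpf at 3, H2-K1 at 157 and H2-D1 at 198. Another 5 ranked below the middle of the list, down to Glyr1 at 8513. The spacing was taken from H2-D1, H2-K1 and B2m, and B2m is the reference of the ranking. The places of H2-K1 and H2-D1 therefore add no support. Both the spacing and these ranks were noticed in these data, no test was made of them, and Hnrnpf has several start windows in the table.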
